A study of Mus musculus with 44 samples.

Results

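Neurotrophic factors are secreted proteins that support the survival, growth and synapses of neurons. This account covers 7 genes chosen by name, namely the ligands Bdnf, Ntf3, Gdnf and Cntf and the receptors Ntrk2, Ntrk3 and Ngfr. They are 7 of the 54446 gene identifiers in the count table, followed in the 28 brain libraries of a series of 44 libraries. The rule that picks them uses their names and no measured value, though the names were chosen with earlier results of these data known. The study asked how a ketogenic diet (KD), which is rich in fat, acts on the aging mouse brain compared with a carbohydrate-based control diet (CD). RNA of whole brains was depleted of ribosomal RNA and sequenced. All mice were C57BL/6 males from the aged colony of the National Institute on Aging and began the experimental diets at 12 months of age. The 12-month CD group (n = 5) and the 12-month KD group (n = 7) had eaten their diet for one week. The 26-month CD group (n = 8) had eaten CD throughout. The 26-month KD group (n = 8) had alternated weekly between KD and CD, and its tissue was taken during a CD week, so these brains are not from mice on KD at that moment. The design gives 3 contrasts: the one-week KD, which is 12-month KD against 12-month CD, aging, which is 26-month CD against 12-month CD, and the one-year KD, which is 26-month KD against 26-month CD. The one-week KD and aging share the 12-month CD brains, and aging and the one-year KD share the 26-month CD brains. In the aging contrast the mice also differ in their time on CD. The labels give no day, cage or batch of processing. Nothing in the labels ties brains to litters or cages, so p-values measure the spread between these brains.

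Brain-derived neurotrophic factor (BDNF, gene Bdnf) acts through the receptor tyrosine kinase TrkB (Ntrk2), and neurotrophin-3 (Ntf3) acts through TrkC (Ntrk3). The p75 receptor (Ngfr) binds all neurotrophins and their uncleaved precursors, and in the adult brain it is best known on the cholinergic neurons of the basal forebrain. Glial cell line-derived neurotrophic factor (Gdnf) signals through the co-receptor Gfra1 and the kinase Ret, and ciliary neurotrophic factor (Cntf), a cytokine of the interleukin-6 family, signals through Cntfr, Lifr and Il6st. Excitatory neurons of the cortex and hippocampus make BDNF, and firing raises Bdnf transcription through several promoters. TrkB is made in a full-length kinase form by neurons and in a truncated form by astrocytes, and TrkC has truncated forms too.

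In GRCm38, Bdnf lies on chromosome 2 from 109674700 to 109727007 on the plus strand and has 11 annotated transcripts, which begin at different first exons. RefSeq promoter windows, each running from 250 bases before to 50 bases after a transcript start, were found for 6 of the 7 genes, with none for Ntrk3 in the table used. Bdnf had 7 windows, and they were searched on both strands for the full CREB site TGACGTCA, for its form with 1 changed base, TCACGTCA or TGACGTGA on the other strand, and for the E-box CACGTG. CREB is the factor through which calcium signals reach many activity-dependent genes. The full site was found in 1.79% of the 32851 windows of all genes, the changed form in 0.441% and the E-box in 7.15%. Of the 7 Bdnf windows 1 held a match. It was TCACGTCA at position -38 from the start. Both windows below are from the plus strand of RefSeq GRCm38.p6 and are shown because a single count per gene sums transcripts from all these promoters: the first holds the matched letters, in capitals, and the second is the window farthest upstream, which holds none of the 3 motifs.
Bdnf window at chr2:109692186-109692485: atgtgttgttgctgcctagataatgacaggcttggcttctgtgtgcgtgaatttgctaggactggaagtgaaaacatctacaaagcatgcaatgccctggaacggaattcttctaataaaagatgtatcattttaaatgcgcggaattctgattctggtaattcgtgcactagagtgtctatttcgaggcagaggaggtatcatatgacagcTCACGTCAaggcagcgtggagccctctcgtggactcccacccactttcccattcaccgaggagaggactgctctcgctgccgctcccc
Bdnf window at chr2:109674450-109674749: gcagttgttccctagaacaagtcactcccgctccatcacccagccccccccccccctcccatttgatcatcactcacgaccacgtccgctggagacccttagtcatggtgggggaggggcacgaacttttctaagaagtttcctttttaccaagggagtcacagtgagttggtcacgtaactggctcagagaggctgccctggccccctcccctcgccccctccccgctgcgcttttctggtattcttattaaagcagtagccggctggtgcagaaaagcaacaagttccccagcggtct
A match of letters is a description and not a measured site. Of the other windows, only 1 of the 2 for Ntf3 held a match, an E-box at position -231.

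Total counts per brain ran from 7447742 to 12744415, with a median of 10810699. Markers of neurons in general summed to between 4750 and 7360 CPM per brain, a count scaled by the library total (TMM), and those of astrocytes to between 4300 and 6510 CPM, and none of these 10 and 11 genes was at 0 in every brain. Regional markers varied far more between brains of the same group. The 12 cerebellar markers, such as the Purkinje cell gene Pcp2, summed to between 172 and 3260 CPM per brain, and the 20 hindbrain markers, mostly Hox genes, to between 1.38 and 389 CPM. The predicted gene Gm10800 took at most 0.0017% of counts at 12 months and 0.0347% to 1.22% at 26 months, so that signal differed with age. In bulk tissue fewer cells of a type and less RNA per cell cannot be told apart.

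The genes spanned a wide range of abundance. Per kilobase of exon, the mean level over the 28 brains was 45.1 ± 5.76 CPM per kb (SD, n = 28) for Ntrk2, 21.5 ± 3.4 for Ntrk3, 4.34 ± 0.86 for Bdnf, 1.13 ± 0.568 for Ngfr, 0.742 ± 0.326 for Ntf3, 0.518 ± 0.238 for Cntf and 0.3 ± 0.178 for Gdnf. Per kilobase the first 3 did not overlap in any brain: the lowest Ntrk2 level was 32.9 CPM per kb against a highest Ntrk3 level of 31, and the lowest Ntrk3 level was 16.8 against a highest Bdnf level of 5.86. The separation of Ntrk2 from Ntrk3 rests on their exon lengths, 19.292 and 30.17 kb. In CPM they overlapped, at 635 to 1000 for Ntrk2 and 506 to 936 for Ntrk3. Ntrk3 had the higher count in 12-month CD replicates 1 and 4, 12-month KD replicate 10, 26-month CD replicate 5 and 26-month KD replicate 14. The gap was widest in the last of these (9660 against 6550). Ngfr, Ntf3, Cntf and Gdnf overlapped each other in their ranges, and their order is not resolved beyond the spread between brains. Ntrk2 was above 97.2% of the 22079 genes tested in mean level and Ntrk3 above 90.9%, whereas Gdnf was above 4.3%. Of the 7 genes 6 passed the filter on low counts, and Cntf, with 1 to 10 counts per brain, did not.

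**Figure D1:**
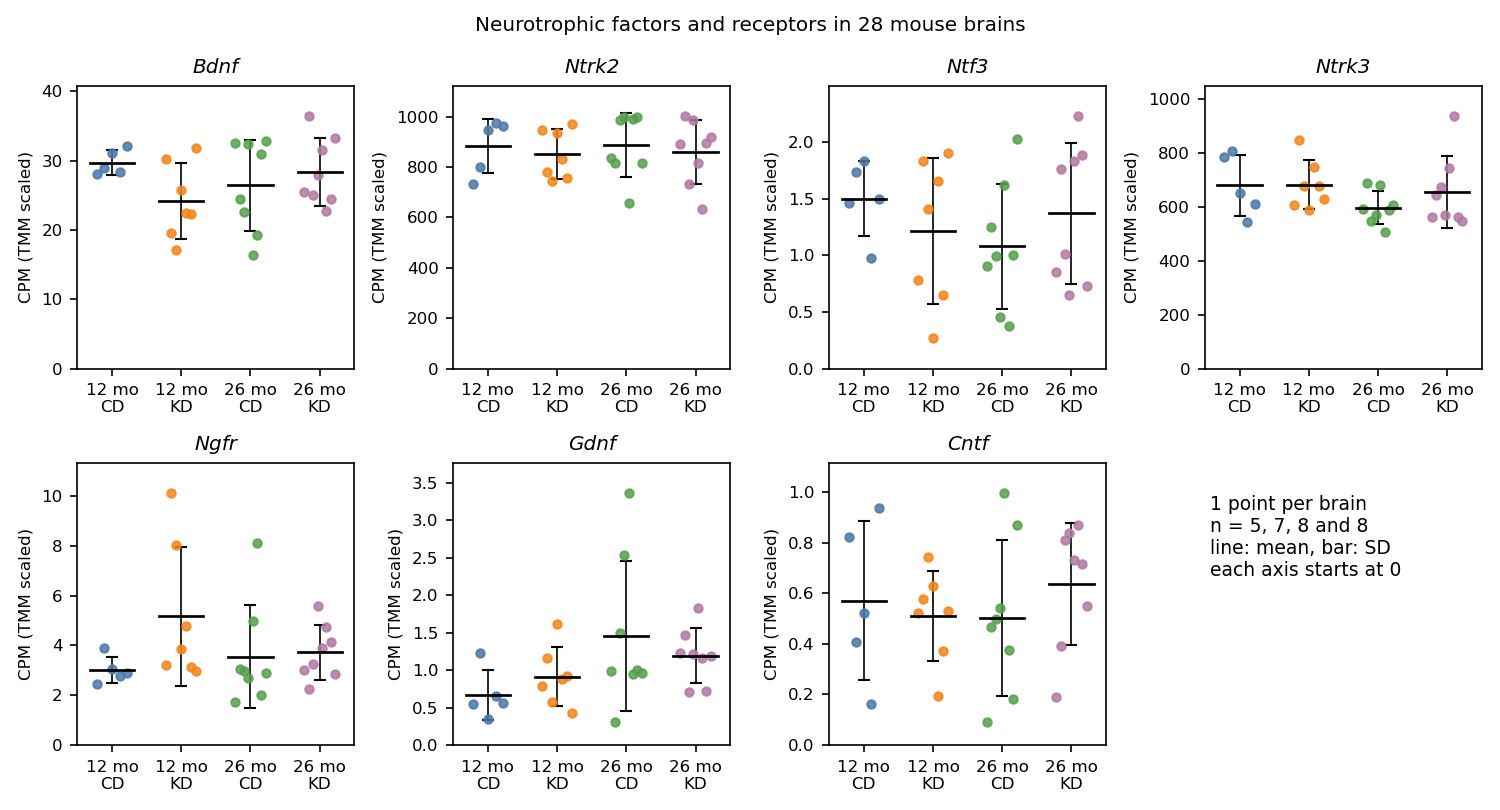
CPM (TMM scaled) of each of the 7 genes in every brain, by group. Points are brains, lines are group means and bars are SD (n = 5, 7, 8 and 8). Every gene overlaps between the groups of each contrast. Ngfr runs from 2.96 to 10.1 CPM in 12-month KD and Gdnf from 0.311 to 3.37 CPM in 26-month CD.

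No member passed the test in any contrast. For the one-week KD, 0 of the 6 tested members passed at an adjusted p under 0.05 (edgeR quasi-likelihood test, Benjamini-Hochberg over 22079 genes), and 0.00453% of all genes did, which is 1 gene. For aging, 0 of 6 passed against 1.26% of all genes. For the one-year KD 0 of 6 passed against 0% of all genes, and for the difference between the 2 diet effects 0 of 6 passed against 0%. At an unadjusted p under 0.05, only Ngfr passed in the one-week KD, where 2.65% of all genes did, and only Gdnf in aging, where 11.8% did. No member passed that limit in the one-year KD (4.52% of all genes) or in the difference (4.52%). DESeq2 and limma also called 0 members in each contrast. None of the 7 genes separated the groups of a contrast without overlap, which 0.263% of tested genes did in the one-week KD (0.149% higher and 0.113% lower), 1.27% in aging and 0.00453% in the one-year KD. The median log2 fold change of all tested genes was 0.00 in each contrast.

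**Figure D2:**
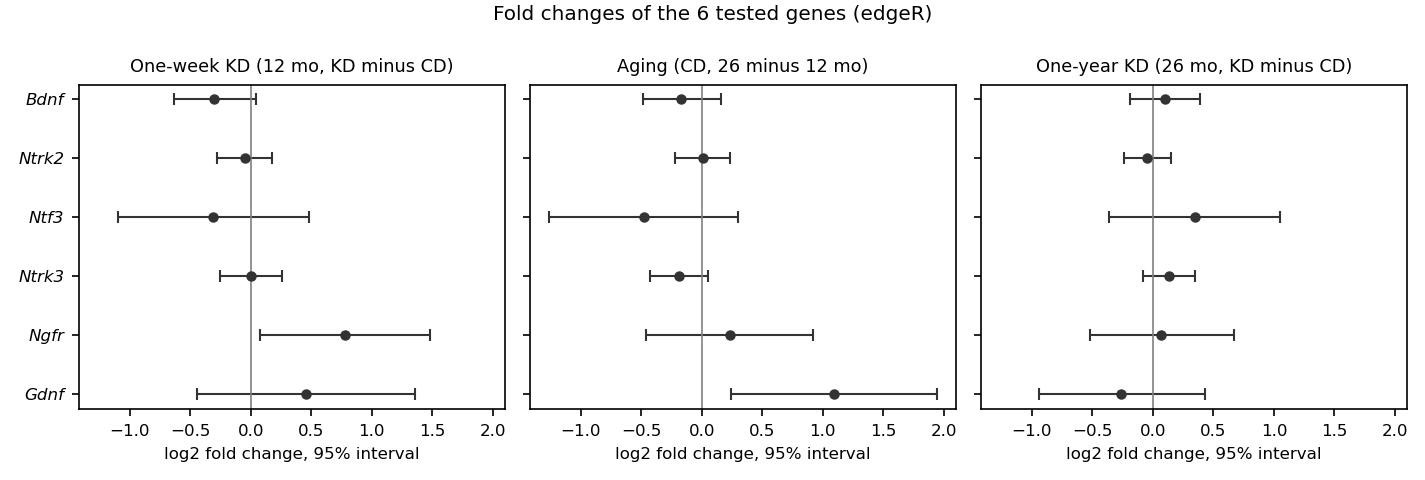
Log2 fold change (x axis) and 95% interval of the 6 tested genes in the 3 contrasts, from edgeR. Only the intervals of Ngfr in the one-week KD (0.08 to 1.48) and of Gdnf in aging (0.24 to 1.94) leave out 0, and neither passed after adjustment. The intervals of Ntrk2 and Ntrk3 are the narrowest.

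Bdnf encodes the ligand of TrkB. The 12-month CD brains held 28.08, 28.94, 31.08, 28.38 and 32.08 CPM (replicates 1, 4, 7, 13 and 16), which is the tightest group of the 4, at 29.7 ± 1.77 CPM (SD, n = 5). The 12-month KD brains ran from 17 to 31.9 CPM with a median of 22.4, the 26-month CD brains from 16.3 to 32.8 with a median of 27.7, and the 26-month KD brains from 22.8 to 36.4 with a median of 26.7. Of the 7 brains after the one-week KD, 5 lay below all 12-month CD brains and 2 lay within their range. Bdnf was 0.813 times its 12-month CD level after the one-week KD (log2 fold change -0.30, SE 0.16, adjusted p = 1 by edgeR). With aging the log2 fold change was -0.17 (SE 0.16) and with the one-year KD 0.10 (SE 0.14). The diet effects differed by 0.40 (SE 0.22, 95% interval -0.05 to 0.84, adjusted p = 1), so that the one-year effect was the higher of the pair without passing the test. Counting alone gives a coefficient of variation of 5.9% at the mean Bdnf count, against 19.8% observed. The antisense gene Gm45346 shares 896 exonic bases with Bdnf and held 81 counts over all brains.

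Ntrk2 encodes TrkB and lies on chromosome 13 from 58806569 to 59133970 on the plus strand. Of its 10 transcripts 7 are annotated as coding, and the gene-level counts add full-length and truncated forms together. The 12-month CD brains held 734.9, 801.2, 948.4, 973.5 and 962.1 CPM, so replicates 1 and 4 stood below the other 3. The other groups spread as widely, from 743 to 972 CPM in 12-month KD (median 832), from 658 to 1000 in 26-month CD (median 912) and from 635 to 1000 in 26-month KD (median 894). The log2 fold changes were -0.05 (95% interval -0.28 to 0.18) for the one-week KD, 0.01 (-0.22 to 0.23) for aging and -0.05 (-0.24 to 0.15) for the one-year KD. Of these bounds, -0.28 lies farthest from 0. Counting gives a coefficient of variation of 1.04% for Ntrk2, so depth is not what limits this comparison.

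Ntf3 encodes neurotrophin-3 and lies on chromosome 6 from 126101412 to 126166910 on the minus strand. It was scarce, at 3 to 23 counts per brain. The 12-month CD brains held 1.463, 1.738, 1.833, 0.9731 and 1.501 CPM. The other groups ran from 0.269 to 1.91 CPM in 12-month KD (median 1.41), from 0.377 to 2.03 in 26-month CD (median 0.999) and from 0.652 to 2.23 in 26-month KD (median 1.39). The medians thus lay lowest in 26-month CD, while the ranges of all 4 groups overlapped. The aging log2 fold change was -0.48 (SE 0.38, adjusted p = 0.711), the one-week value -0.31 (SE 0.39) and the one-year value 0.35 (SE 0.34). None passed the test. Counting alone gives a coefficient of variation of 27.4% at the mean count, against 44% observed. With the receptor gene covariate described under Gdnf the aging value was -0.91 (edgeR adjusted p = 0.393).

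Ntrk3 encodes TrkC and lies on chromosome 7 from 78175959 to 78738012 on the minus strand, with 20 transcripts of which 6 are coding. The 12-month CD brains held 785.6, 807.9, 652.2, 543.4 and 611.6 CPM. The replicates with the highest Ntrk3, 1 and 4, were those with the lowest Ntrk2. The 12-month KD brains ran from 588 to 847 CPM (median 678), the 26-month CD brains from 506 to 687 (median 591) and the 26-month KD brains from 546 to 936 (median 608). The log2 fold changes were 0.00 (95% interval -0.25 to 0.26) for the one-week KD, -0.19 (-0.43 to 0.05, adjusted p = 0.598) for aging and 0.13 (-0.08 to 0.35) for the one-year KD. The receptor gene covariate moved the aging value to -0.32 (edgeR adjusted p = 0.27).

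Ngfr encodes p75 and lies on chromosome 11 from 95568818 to 95587735 on the minus strand. The 12-month CD brains held 2.47, 3.886, 3.055, 2.757 and 2.908 CPM. The 12-month KD brains ran from 2.96 to 10.1 CPM with a median of 3.86, and the 2 highest of them, replicates 10 and 5, held 105 and 97 counts. The 26-month CD brains ran from 1.71 to 8.1 CPM (median 2.94), with replicate 6 highest, and the 26-month KD brains from 2.25 to 5.59 (median 3.57). A few brains thus stood well above the rest, in more than one group. Ngfr was 1.72 times its 12-month CD level after the one-week KD (log2 fold change 0.78, SE 0.34), and this did not pass over all genes (edgeR adjusted p = 1). Without 12-month KD replicate 10 the value was 0.53 and without replicate 5 it was 0.64. The aging value was 0.23 (SE 0.34) and the one-year value 0.07 (SE 0.29). The cholinergic markers, which include the acetylcholine-synthesizing enzyme gene Chat, had a median log2 fold change of 0.95 in the one-week KD, with 7 of 7 above 0 against 49.4% of all tested genes and 0 called. In aging their median was 1.19, again with 7 of 7 above 0 and 0 called, while Ngfr stood at 0.23. In the one-year KD their median was -0.51, with 0 of 7 above 0 and 0 called, while Ngfr stood at 0.07. Their summed level was 65.6 to 89.4 CPM in 12-month CD and 57.2 to 149 CPM in 12-month KD. Hindbrain markers had a one-week median of 1.48, with 17 of 17 tested above 0 and 0 called, and a summed level of 1.38 to 146 CPM in 12-month CD against 4.13 to 389 CPM in 12-month KD. Their median was 0.53 in aging, with 12 of 17 above 0 and 1 called. In the one-year KD it was -0.95, with 2 of 17 above 0 and 0 called. With the hindbrain score as a covariate the one-week Ngfr value was 0.48, and with the cortical excitatory score 0.35. The part of the cholinergic markers was not tested.

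Gdnf lies on chromosome 15 from 7810846 to 7837575 on the plus strand and held 4 to 28 counts per brain. The 12-month CD brains held 0.5488, 1.227, 0.3492, 0.6488 and 0.5628 CPM. The 12-month KD brains ran from 0.423 to 1.62 CPM (median 0.877), the 26-month CD brains from 0.311 to 3.37 (median 0.998) and the 26-month KD brains from 0.708 to 1.83 (median 1.2). The 2 highest brains were 26-month CD replicates 4 and 5, with 28 and 27 counts. Replicate 5 is also the brain with 1.22% of counts in Gm10800. With aging Gdnf was 2.12 times its 12-month level (log2 fold change 1.09, SE 0.41, 95% interval 0.24 to 1.94), which did not pass over all genes (edgeR adjusted p = 0.247). It was 0.82 without replicate 5, and 0.52 with the summed olfactory, vomeronasal and taste receptor genes as a covariate. Those 2008 receptor genes summed to 186 to 237 CPM at 12 months and to 210 to 1451 CPM at 26 months. The part of that signal in the Gdnf value was not tested further. The one-week value was 0.46 (SE 0.44) and the one-year value -0.26 (SE 0.33).

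Cntf lies on chromosome 19 from 12763660 to 12765632 on the minus strand. Of its 1073 exonic bases, 847 are shared with exons of Zfp91 on the same strand, which held 1717 to 2927 counts per brain, so the few counts given to Cntf are uncertain. The group means were 0.571 ± 0.314 CPM (SD, n = 5) in 12-month CD, 0.51 ± 0.179 (n = 7) in 12-month KD, 0.503 ± 0.309 (n = 8) in 26-month CD and 0.638 ± 0.242 (n = 8) in 26-month KD. The spread of 46% between brains was close to the counting error of 41.4%. In a fit with no filter the log2 fold changes were -0.13 (SE 0.43) for the one-week KD, -0.25 (SE 0.42) for aging and 0.37 (SE 0.37) for the one-year KD.

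Ratios of ligand to receptor within a brain do not depend on library scaling. Per kilobase, Bdnf was 9.22 to 11.7 times below Ntrk2 by group median, and Ntf3 was 26.4 to 32.3 times below Ntrk3. Ntrk2 exceeded Ntrk3 by 2.27 times in 12-month CD, 1.75 times in 12-month KD, 2.42 times in 26-month CD and 2.46 times in 26-month KD, again by median and per kilobase. The mean log2 ratios of these groups, in the same order, were 1.03, 0.97, 1.21 and 1.05. The size of each ratio depends on the exon lengths used. Single brains ranged from a log2 ratio of 0.08, in 26-month KD, to 1.62, in 26-month CD. The groups of each contrast overlapped in all 18 comparisons of the 6 ratios.

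The other genes of these pathways gave few calls. Of 28 further genes of the neurotrophin system 25 were tested, and none was called in any contrast. Rtn4r, the Nogo receptor, which forms a complex with p75, had log2 fold changes of -0.57 in the one-week KD (SE 0.29, edgeR adjusted p = 1) and -0.71 in aging (SE 0.29, edgeR adjusted p = 0.284), neither past the test. The shares of all genes called were 0.00453% in the one-week KD, 1.26% in aging and 0% in the one-year KD. None of 7 tested GDNF family genes, 49 genes of Trk signalling or 20 regulators of Bdnf transcription was called. In the CNTF family 1 of 13 tested genes passed in aging, where 1.26% of all tested genes did. It was Osmr, the oncostatin M receptor, which pairs with Il6st, rose with aging from 8.45 ± 0.921 CPM (n = 5) to 14.9 ± 5.31 (n = 8), a log2 fold change of 0.81 (SE 0.20, edgeR adjusted p = 0.0359). Its partner subunit Il6st stood at 144 ± 7.43 and 141 ± 20.5 CPM in the same groups.

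Genes induced by neuronal firing were of interest beside Bdnf, which is itself such a gene. In the one-week KD 0 of 23 tested activity-dependent genes lay above 0, with a median log2 fold change of -0.42 against 0.00 for all genes, of which 49.4% lay above 0. None of the 23 was called, and 5 had an unadjusted p under 0.05, a limit that 2.65% of all genes passed. Fos, an immediate early transcription factor, stood at 15.9 ± 7.64 CPM (n = 5) in 12-month CD and 9.72 ± 3.02 (n = 7) in 12-month KD (log2 fold change -0.71, SE 0.28, adjusted p = 1 by edgeR). Arc, which acts at the synapse, stood at 89.7 ± 37 and 49.7 ± 19.7 CPM. In the one-year KD 18 of 23 lay above 0 (median 0.15), and Npas4, a neuron-specific activity-induced factor, stood at 13.7 ± 5.36 CPM (n = 8) in 26-month CD and 17.7 ± 9.7 (n = 8) in 26-month KD. Cortical excitatory markers had a one-week median of -0.27, with 1 of 10 above 0 and 0 called. Their summed level was 1310 to 1700 CPM in 12-month CD and 713 to 1930 CPM in 12-month KD. With the cortical score as a covariate the one-week value of Bdnf was -0.15.

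The variation of the members between brains was then set against each other and against marker scores, each the mean z value of a list. In 15 chosen pairs, with group means removed and labels permuted within groups 100000 times, 7 passed by Pearson's r after Benjamini-Hochberg adjustment over the 15. Each is given below with its values inside 2 sets of brains, because the cerebellar score fell into separate clusters with a gap from -0.481 to 0.188. Of the 28 brains 15 lay above 0 and 13 below. The 12-month CD group had 3 above and 2 below, 12-month KD 4 and 3, 26-month CD 4 and 4 and 26-month KD 4 and 4, so the clusters cross the diets and ages. This division was made after the data were seen, and it uses cerebellar genes and none of the members.

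Ntrk2 and Ntrk3 followed this division in opposite directions. Ntrk2 ran from 634 to 948 CPM (median 801) in the 15 brains with a high cerebellar score and from 894 to 1000 CPM (median 974) in the 13 others. Ntrk3 ran from 562 to 936 CPM (median 679) in the first and from 506 to 645 CPM (median 570) in the second. Ntf3, the ligand of TrkC, had medians of 1.62 and 0.973 CPM, and Bdnf 25 and 30.3 CPM. Over all 28 brains Ntrk2 and Ntrk3 were opposed (Pearson's r = -0.78, permutation p = 1e-05, the smallest these permutations can give, adjusted p = 0.00015, Spearman's rho = -0.68, p = 0.00022). This did not hold within both clusters: r was -0.67 in the 15 brains (rho = -0.53, permutation p = 0.033, adjusted p = 0.095 over 30 relations) and 0.53 in the 13 (rho = 0.44, permutation p = 0.071, adjusted p = 0.14). The pooled value thus rests on the difference between the clusters and on the 15 brains. Ntrk3 against the cortical score also changed sign, at -0.64 (adjusted p = 0.096) in the 15 brains and 0.74 (adjusted p = 0.047) in the 13 by permutation. Ntrk2 against the astrocyte score had r = -0.47 over all brains (permutation p = 0.019, adjusted p = 0.041, rho = -0.59) but -0.10 and -0.44 within the clusters, neither past the test. Why these receptors differ with the cerebellar score was not tested.

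**Figure D3:**
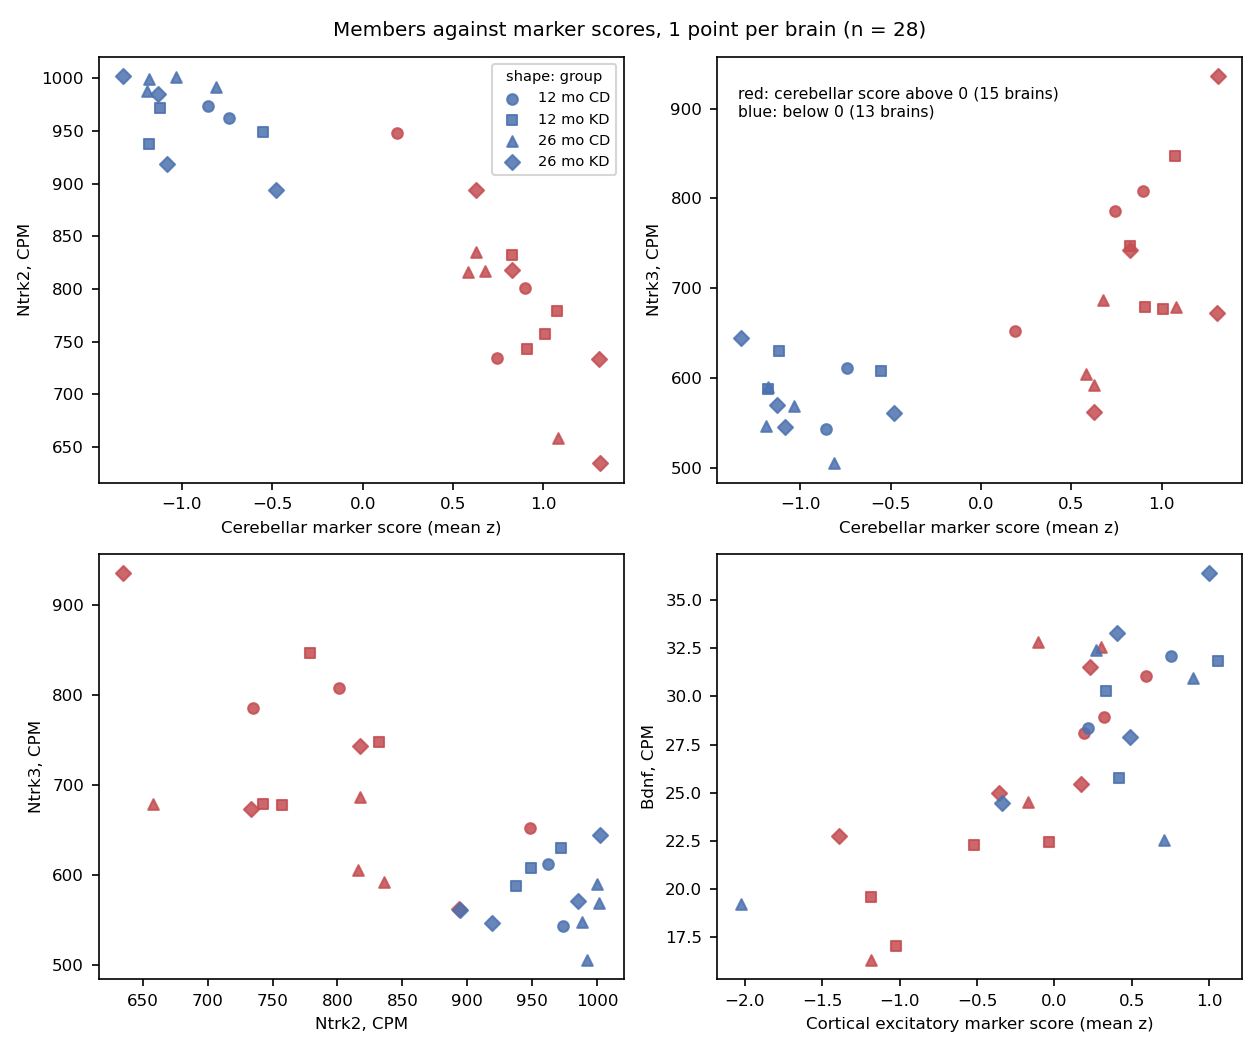
Top: Ntrk2 and Ntrk3 (CPM) against the cerebellar marker score (mean z value). Bottom: Ntrk3 against Ntrk2, and Bdnf against the cortical excitatory marker score. Each point is 1 of 28 brains, red for a cerebellar score above 0 (15) and blue below 0 (13), with marker shapes for the 4 groups. Ntrk2 lies at 894 to 1000 CPM in the blue brains and at 634 to 948 CPM in the red, and each cluster holds all 4 groups.

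Ntf3 and Ntrk3 varied together. Pearson's r was 0.61 over all 28 brains (permutation p = 0.00036, adjusted p = 0.0013, rho = 0.62, p = 0.00045) and 0.56 without the 2 brains farthest from the median of Ntf3. It was positive in all 4 groups, from 0.64 to 0.72, and similar in both clusters at 0.63 (n = 15) and 0.58 (n = 13), each with a permutation adjusted p of 0.095. Bdnf and Ntrk2 gave r = 0.56 (permutation p = 0.0037, adjusted p = 0.0093, rho = 0.54, p = 0.006), but 0.38 without the 2 farthest brains, so this relation rests in part on them. Within the clusters it was 0.65 (n = 15, permutation adjusted p = 0.047) and 0.42 (n = 13, permutation adjusted p = 0.38). The ligands Bdnf and Ntf3 showed no detectable relation to each other (r = -0.09, permutation p = 0.71, adjusted p = 0.75).

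Bdnf followed the cortical excitatory score most closely. The r was 0.80 over 28 brains (permutation p = 2e-05, adjusted p = 0.00015, rho = 0.80, p = 3e-05), 0.77 without the 2 farthest, and at least 0.70 in each of the 4 groups. It was 0.78 (permutation adjusted p = 0.017) in the 15 brains with a high cerebellar score and 0.73 (permutation adjusted p = 0.079) in the 13 others. The lowest Bdnf levels, 16.33 CPM in 26-month CD replicate 5 and 17.04 CPM in 12-month KD replicate 5, belonged to brains low in that score. With the activity-dependent genes Bdnf had r = 0.69 (permutation p = 0.00017, adjusted p = 0.00085, rho = 0.67, p = 0.00083), 0.63 without the 2 farthest, and 0.77 and 0.58 within the clusters (permutation adjusted p = 0.02 and 0.21). By group this r was 0.29 in 12-month CD, 0.73 in 12-month KD, 0.63 in 26-month CD and 0.90 in 26-month KD. Ngfr followed the cholinergic score with r = 0.67 (permutation p = 0.00062, adjusted p = 0.0019, rho = 0.61, p = 0.0026), 0.51 without the 2 farthest, and 0.69 and 0.74 within the clusters (permutation adjusted p = 0.047 and 0.061). In the groups this was 0.98, 0.79 and 0.90, but 0.14 in 26-month KD. Ngfr showed no detectable relation to the hindbrain score (r = 0.35, permutation adjusted p = 0.16), the meningeal score (0.14, 0.57) or the Schwann cell score (0.06, 0.75). Neither Ntf3 with the hippocampal score (0.28, permutation adjusted p = 0.25) nor Cntf with astrocytes (0.08, 0.75) or meningeal fibroblasts (0.39, 0.089) passed.

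**Figure D4:**
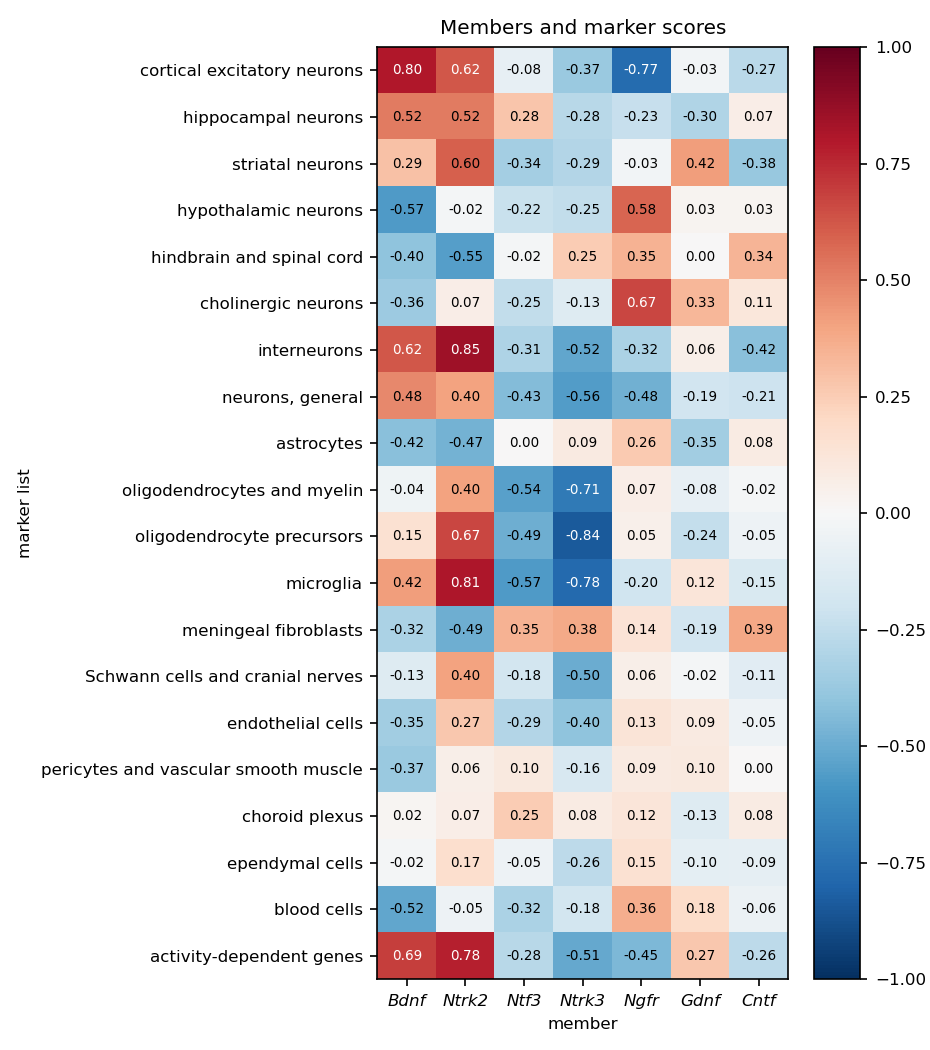
Pearson's r over 28 brains, group means removed, between each of the 7 genes (columns) and 20 marker or activity scores (rows), as a description with no test. Red is positive and blue negative. The cerebellar score is left out because its brains form separate clusters, and Bdnf and Ngfr are opposed in the cortical row, at 0.80 and -0.77.

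Bdnf and Ngfr ran opposite to each other across brains (r = -0.75, a description from the 28 shared libraries), as they did against the cortical score (0.80 and -0.77) and the hypothalamic score (-0.57 and 0.58). The microglial score, by contrast, went with Ntrk2 at 0.81 and against Ntrk3 at -0.78, pooled over both cerebellar clusters. All these values come from the same libraries and carry no test.

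Likeness to each member was taken over the 28 brains with group means removed, pooled over both cerebellar clusters, by which Ntrk2 and Ntrk3 differ. The genes most like each member were listed by Spearman's rho among 13509 genes, as a description. For Bdnf they were Nudt3 (0.90), Irak1bp1 (0.90) and the monocarboxylate transporter Slc16a7 (0.89). For Ntrk2 they were the neuronal migration gene Astn1 (0.94), Cyp4f15 (0.94) and March6 (0.92). For Ntrk3 they were Rsbn1l (0.93), Arhgef7 (0.91) and Dgkd (0.90). The scarcer members had weaker likenesses: Cemip (0.79), Slc4a7 (0.74) and Golm1 (0.70) for Ntf3, Ogfod3 (0.79), Slc12a3 (0.75) and Dancr (0.71) for Ngfr, and Nt5e (0.68), Npl (0.65) and Baz1a (0.64) for Gdnf.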

How the data were processed

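Whole brains of 28 mice in 4 groups were sequenced after depletion of ribosomal RNA. According to the study's methods, the authors trimmed reads with Trimmomatic, mapped them to GRCm38 with STAR and made gene counts with RSEM, with versions not given in the sources used here. The deposited table holds whole-number counts for 54446 gene identifiers in 44 libraries, and 54409 were matched to symbols of GENCODE vM21. RSEM shares out reads that map to several genes or transcripts. Whether the deposited whole numbers were made in this way cannot be told from the sources. How reads shared by Cntf and Zfp91 were counted is therefore unknown. Members and gene lists were chosen with earlier results of these data known.

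Counts were tested in R 4.3.3 with edgeR 4.0.16 (filterByExpr, TMM, quasi-likelihood F test, Benjamini-Hochberg over 22079 genes, threshold 0.05) in 1 fit of all 4 groups. CPM are TMM scaled, and per-kilobase values use the union of exons. Scores and relations used log2 CPM with a prior count of 2, in Python 3.11.15 with SciPy 1.17.1. Alternatives were DESeq2 1.42.0, limma 3.58.1 with sample weights, other scaling, filters, covariates and left-out libraries. From each pathway list the text names genes called or among the 3 smallest p-values of a contrast. Genes given beside Bdnf, Ngfr and Gdnf as receptors or partners (Il6st) were named for their role. Some genes of the lists are not reported here. The liver libraries entered no test. Total counts per brain ran from 7447742 to 12744415, and intervals for counts cover counting error only.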

Additional observations from a re-analysis of the deposited data

Results flagged for a closer look

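Of 52 groups of values tested for a sample far from the others, 1 was singled out, and chance alone flags about 1 group in 20. The log2 ratio of Cntf to its receptor Cntfr in the 26-month KD brains was lowest in replicate 9, at -7.71, with the next brain at -6.09. That brain held 2 counts of Cntf.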

How the results depend on the processing

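Under 42 alternative settings, 28 of which left out 1 library each, 717 further log2 fold changes of the members were computed. None passed the test (0 of 717; lowest adjusted p = 0.101), and 54 changed sign, all of values that had not passed. With the hindbrain score as a covariate the one-week value was 0.07 for Ntrk2 and -0.05 for Ntrk3, and the difference of diet effects for Ntrk2 -0.17. With the cortical score these were 0.02, -0.06 and -0.11, and aging Ngfr was -0.24. With the cerebellar score, one-week Ntrk3 was 0.00 and aging Ntrk2 -0.03. With limma, aging Ntrk2 was -0.03, aging Ngfr -0.05, one-year Ntrk2 0.01, one-year Gdnf 0.25 and the difference for Ntrk3 0.00. With no filter, aging Ntrk2 was -0.04 and the difference for Ntrk2 0.00, which total counts alone put at -0.02. Without brains above 0.5% Gm10800, a choice made after seeing the data as was the cerebellar covariate, one-year Ngfr was -0.11 and the difference for Ntrk2 -0.01. Moves of over 1.5 times without a change of sign, in values of at least 0.15 in size, are given next. Left-out libraries and the replicate block come later. The receptor covariate put aging Bdnf at -0.08, Ntf3 at -0.91, Ntrk3 at -0.32, Ngfr at 0.14 and Gdnf at 0.52. The hindbrain covariate put one-week Bdnf at -0.19 and Ngfr at 0.48, aging Bdnf at -0.08 and Ngfr at 0.01, and the difference at 0.23 for Bdnf and -0.25 for Ngfr. The cortical covariate put one-week Bdnf at -0.15 and Ngfr at 0.35, aging Bdnf at -0.01, and the difference at 0.20 for Bdnf and -0.05 for Ngfr. Limma put one-week Ntf3 at -0.52, aging Bdnf at -0.11, one-year Ntf3 at 0.19, and the difference at -0.36 for Ngfr and -0.35 for Gdnf. Without brains above 0.5% Gm10800, aging Bdnf was -0.08 and one-year Gdnf -0.14. No cause was tested here. Leaving out 1 library gave -0.07 to 0.08 for one-week Ntrk3, -0.05 to 0.06 for aging Ntrk2, -0.06 to 0.34 for aging Ngfr, -0.10 to 0.01 for one-year Ntrk2, -0.04 to 0.37 for one-year Ngfr, -0.41 to 0.02 for one-year Gdnf and -0.05 to 0.06 for the difference of Ntrk2. Of the relations, Bdnf with Ntf3 was 0.02 with group means kept and 0.08 without the 2 farthest brains, and Ngfr with the Schwann cell score was -0.02 with group means kept. At low cerebellar score, r was 0.27 for Bdnf with Ntf3, 0.53 for Ntrk2 with Ntrk3, 0.74 for Ntrk3 with the cortical score, -0.09 for Ngfr with Schwann cells, -0.20 for Cntf with astrocytes and -0.15 for Cntf with meningeal fibroblasts. Of the 7 relations passing in all brains, 4 passed at high score. At low score only another, Ntrk3 with the cortical score, did. Each set holds fewer brains.

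Only replicate numbers 1, 4 and 7 occur in both aging groups, so a replicate block compares only these. Same-numbered brains correlated at 0.19, -0.23 and -0.08, too few values to tell if numbers pair mice. With the block, aging Bdnf was 0.12, Ngfr -0.56, Ntf3 -1.10, Ntrk3 -0.36, Ntrk2 0.19 and Gdnf 1.08, and 0 members passed (adjusted p from 0.285 to 0.665). Over all genes aging then gave 14 higher and 1 lower, against 221 and 57 without the block, 734 and 111 by DESeq2, 294 and 107 by limma, 90 and 31 with only its own groups fitted, 146 and 47 with no filter, 134 and 41 with at least 10 counts in every library, 130 and 47 with the receptor covariate and 330 and 117 with the cerebellar covariate. The one-week call was lost with total counts alone, no filter, the hindbrain or cortical covariate and without brains high in Gm10800. Depth limits Ntf3, Gdnf and Cntf most.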

Other observations

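In the 16 liver libraries, which entered no comparison here, Ngfr held 28 to 167 counts and Bdnf 4 to 141. Gdnf was counted in 10 of the 16 livers, with at most 22 counts.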
